A study of Mus musculus with 22 samples.

Results

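The 10 genes described here encode the enzymes and transcription factors of de novo fatty acid synthesis: Acly, Me1, Acaca, Acacb, Fasn, Elovl6, Scd1, Scd2, Srebf1 and Mlxipl. They were taken as every probe of the scanner table that the probe annotation assigns to these symbols, which gave 14 of 45281 probes. Of those 14 probes, 11 passed the filter on dim signals, and these 11 cover 9 genes. Acaca did not pass. Fatty acid synthesis starts in the cytosol from citrate that mitochondria export. Citrate is split to acetyl-CoA, acetyl-CoA is carboxylated to malonyl-CoA, and fatty acid synthase joins these units using NADPH as the reductant. Elongases and desaturases then turn the product, palmitate, into longer and monounsaturated fatty acids. In the colon the epithelium also takes up short-chain fatty acids, mainly butyrate, that gut bacteria make, and it oxidises them or feeds them into lipid.

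Colon epithelial cells of BALB/c mice, 6 to 10 weeks old and labelled male, were profiled on 22 Illumina bead arrays. The mice were wild type (WT) or, as pIgR-KO mice, lacked the polymeric Ig receptor that transports secretory antibodies through epithelial cells to the lumen (KO below). Either genotype was untreated or given antibiotics for 17 days. This gave 5 arrays each for WT_untreated and WT_antibiotic and 6 arrays each for KO_untreated and KO_antibiotic. Which antibiotics were used, how the knockout allele was built and how many mice went into an array is not stated in the labels. Fat and mesentery were removed from the colon, and the epithelium was shaken loose in EDTA (20 mM, 25 min) with no sorting step named. Levels below are background-corrected, quantile-normalised log2 signals, so a difference of 1 is a doubling of the signal. Levels are compared between groups for 1 probe at a time, never between probes.

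Between 15975 and 18388 probes were detected per array. The Pigr probe lay between 8.93 and 10.73 in KO_untreated and between 8.74 and 10.25 in KO_antibiotic, below the WT arrays at 11.61 to 12.50 and 11.32 to 12.01. Its KO level was 3.62-fold lower without and 4.60-fold lower with antibiotics (limma, adjusted p = 0.00131 and 0.000654), and where the probe lies relative to the deleted part is not known here. The sample descriptions of KO_untreated 2 to 6 end in a suffix that KO_untreated 1 and the other groups lack. That suffix and the group cannot be told apart. Each call below for a gene of fatty acid synthesis or the steps around it that rests on KO_untreated is therefore also given with KO_untreated 1 as its single array. That array is assumed to vary like the other groups. A single array has little power to keep a call, even where the difference stays the same or grows, so a lost call there does not measure the suffix. KO_untreated 1 also had the lowest mean correlation with the other arrays, at r = 0.944 across tested probes. Its values may thus be those of 1 unlike array. KO_untreated 1 and 2 share the number in front of the suffix. Their profiles correlated at r = 0.963 across tested probes, below the highest pair of arrays at 0.987. Whether both come from 1 mouse is not stated, and this correlation cannot settle it. If they do, the KO_untreated arrays are not all independent. All 9 epithelial markers were tested (Epcam, Cdh1, Krt8 and others), each with a probe detected on 22 of 22 arrays. Of 12 adipocyte markers 4 were tested, while Fabp4, Plin1, Retn, Cidea and Car3 were undetected on every array and Adipoq was detected on 1. In bulk cells a smaller number of cells of a type and less RNA per cell cannot be told apart.

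Antibiotic treatment went with lower Me1 and Acacb in both genotypes. Me1 was 2.88-fold lower in WT and 2.92-fold lower in KO, and Acacb 2.39-fold and 2.09-fold. Averaged over the genotypes, Elovl6 and Scd1 also fell, by 0.59 and 0.54 on the log2 scale. No member rose past the threshold in any comparison. Acly, Fasn, Scd2, Srebf1 and Mlxipl passed it in none of the 7 comparisons.

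In counts, 2 of 11 member probes passed an adjusted p of 0.05 between antibiotic and untreated WT arrays, both lower (limma, Benjamini-Hochberg over 19993 probes). Of all tested probes 4.75% passed in that comparison and 2.27% passed as lower. Between antibiotic and untreated KO arrays 2 of 11 member probes passed, both lower, where 12.4% of all probes passed and 7.06% passed as lower. Averaged over the genotypes 5 of 11 passed, all lower, where 17.3% of all probes passed and 8.38% passed as lower. Both Elovl6 probes are among these, so fewer genes than probes passed. By brightest probe 20% of all genes passed there. The median log2 difference of the 9 member genes for that average was -0.14, against 0.01 over all genes tested. The members spread widely around it, from -1.53 for Me1 to 0.29 for Mlxipl.

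Acly and Me1 supply the starting material. Acly is ATP citrate lyase, which makes cytosolic acetyl-CoA. Its level was 11.74, 11.58, 11.34, 11.47 and 11.80 on the WT_untreated arrays and 10.88, 11.08, 11.96, 11.49 and 11.63 on the WT_antibiotic arrays. It ran from 11.22 over a median of 11.51 to 11.86 in KO_untreated and from 10.98 over 11.23 to 12.34 in KO_antibiotic. The groups overlapped throughout, and the antibiotic arrays were spread more widely than the untreated ones in both genotypes. The antibiotic difference of Acly was -0.18 in WT (SE 0.23, adjusted p = 0.718) and -0.09 in KO (SE 0.21, adjusted p = 0.833). The 95% interval of the averaged difference, -0.45 to 0.18, holds no change of 1.5-fold or more in either direction.

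Me1 is the cytosolic malic enzyme, which turns malate to pyruvate and yields NADPH. On the WT_untreated arrays its level was 7.09, 6.76, 8.06, 7.48 and 5.94. On the WT_antibiotic arrays it was 5.94, 5.35, 5.61, 5.85 and 4.96. Every WT_antibiotic array lay below every WT_untreated array, although the highest treated and the lowest untreated array both round to 5.94. In KO_untreated Me1 ran from 6.49 over a median of 7.17 to 8.74, and in KO_antibiotic from 5.26 over 5.90 to 6.39. These groups did not overlap either. Group means were 7.07 ± 0.79 (SD, n = 5) and 5.54 ± 0.40 in WT, and 7.39 ± 0.81 (SD, n = 6) and 5.84 ± 0.46 in KO.

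Me1 fell by 1.52 on the log2 scale in WT (SE 0.37, adjusted p = 0.0179) and fell by 1.55 in KO (SE 0.33, adjusted p = 0.00267). The difference between these responses was -0.02 (SE 0.50, adjusted p = 0.99), so a difference of up to about 1 on the log2 scale was not detectable. Ordered by mean, WT_antibiotic was lowest, then KO_antibiotic, WT_untreated and KO_untreated. The neighbours that differ only in genotype did not differ beyond their spread, at 0.30 with and 0.32 without antibiotics (adjusted p = 1 and 0.563). The WT call rested on single arrays: adjusted p was 0.0696 without WT_untreated 3, 0.0551 without WT_untreated 4 and 0.0579 without WT_antibiotic 5. That call was also lost with median scaling over all probes and with no filter (limma, adjusted p = 0.0589 and 0.0609). The KO difference was -1.07 (adjusted p = 0.347) with KO_untreated 1 as the only untreated KO array, and the averaged difference then was -1.30 (adjusted p = 0.0176).

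The stretch before one of the annotated starts of Me1 is printed because Me1 had the largest difference among the members. It covers 250 bases upstream of the start, from RefSeq, build GRCm38.p6, at chr9:86695915-86696164 on the minus strand. Capitals mark GC boxes (GGGCGG, here as its reverse complement), the letters that the Sp1 family of factors is known to bind. They begin at -109, -48 and -42 counted from the start base as 0, and the last pair abut.
Me1: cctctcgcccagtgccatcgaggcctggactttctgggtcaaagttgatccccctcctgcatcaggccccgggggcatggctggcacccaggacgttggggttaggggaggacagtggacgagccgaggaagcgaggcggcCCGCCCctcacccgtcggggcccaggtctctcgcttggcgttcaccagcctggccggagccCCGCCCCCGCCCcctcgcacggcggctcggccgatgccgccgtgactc
The table holds another Me1 start, whose window holds CCAAT and no GC box. Which start these cells use was not measured.

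Acaca and Acacb make malonyl-CoA. Acaca is the cytosolic acetyl-CoA carboxylase that feeds fatty acid synthase. Its single probe, ILMN_1227339, was not detected on any of the 22 arrays, with levels between 4.19 and 4.32, so no difference is given for it. Acacb is the carboxylase at the outer mitochondrial membrane, whose malonyl-CoA restrains the entry of fatty acids into mitochondria. One of its probes, ILMN_2680256, was undetected on every array, and the values here come from the other, ILMN_2421890.

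Acacb was 8.03, 7.86, 7.27, 7.04 and 6.60 on the WT_untreated arrays and 6.23, 6.68, 5.95, 5.90 and 5.74 on the WT_antibiotic arrays. Of the 5 treated arrays 4 lay below every untreated one. It ran from 6.82 over a median of 7.36 to 7.76 in KO_untreated and from 5.52 over 6.30 to 6.96 in KO_antibiotic, where 5 of 6 treated arrays lay below every untreated one. Acacb fell by 1.26 in WT (SE 0.27, adjusted p = 0.00798) and fell by 1.06 in KO (SE 0.24, adjusted p = 0.00437), on the log2 scale. The difference between the genotypes in that response was 0.19 (95% interval -0.55 to 0.94, adjusted p = 0.873). The untreated means were 7.36 ± 0.59 (SD, n = 5) in WT and 7.36 ± 0.33 (SD, n = 6) in KO, and the KO difference without antibiotics had a 95% interval of -0.53 to 0.53. Leaving out any 1 array kept the Acacb call in both genotypes, with adjusted p up to 0.0293 in WT and 0.0133 in KO. With KO_untreated 1 as the only untreated KO array the KO difference was -0.995 (adjusted p = 0.326) and the averaged difference -1.13 (adjusted p = 0.0209).

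The Acacb upstream sequence is shown beside that of Me1 because both genes fell together. It is the 250 bases before the annotated start at chr5:114165268-114165517, plus strand, RefSeq GRCm38.p6. Capitals mark the CCAAT box at -87, the letters bound by the factor NF-Y.
Acacb: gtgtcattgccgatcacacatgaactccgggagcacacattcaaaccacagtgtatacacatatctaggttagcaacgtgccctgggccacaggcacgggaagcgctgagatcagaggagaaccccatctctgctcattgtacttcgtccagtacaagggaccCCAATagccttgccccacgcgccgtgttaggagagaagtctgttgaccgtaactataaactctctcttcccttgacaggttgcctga
It holds no GC box, so the Me1 and Acacb sequences printed here share none of the 4 motifs that were searched. The window of the other Me1 start does hold CCAAT, as that of Acacb does.

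Fasn, the synthase that builds palmitate, gave signals near background. Its probe was detected on 11 of 22 arrays: 1 of 5 WT_untreated, 2 of 5 WT_antibiotic, 5 of 6 KO_untreated and 3 of 6 KO_antibiotic. Its level was 4.22, 4.57, 4.70, 4.53 and 4.64 in WT_untreated and 4.85, 4.79, 4.51, 4.82 and 4.60 in WT_antibiotic. It ran from 4.58 over a median of 4.95 to 5.29 in KO_untreated and from 4.21 over 4.59 to 5.16 in KO_antibiotic. Of the 6 KO_untreated arrays 5 lay above every WT_untreated array. The KO difference without antibiotics was 0.42 (SE 0.16, unadjusted p = 0.0163 by limma, adjusted p = 0.0903), and with antibiotics it was -0.06 (adjusted p = 1). The antibiotic difference was 0.19 for WT arrays and -0.29 for KO arrays, and their gap was -0.47 (adjusted p = 0.567). With array weights the untreated KO difference passed, at 0.50 (adjusted p = 0.0201), and with KO_untreated 1 as its single array it was 0.37 (adjusted p = 0.436). Signals this close to background understate a change.

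**Figure D1:**
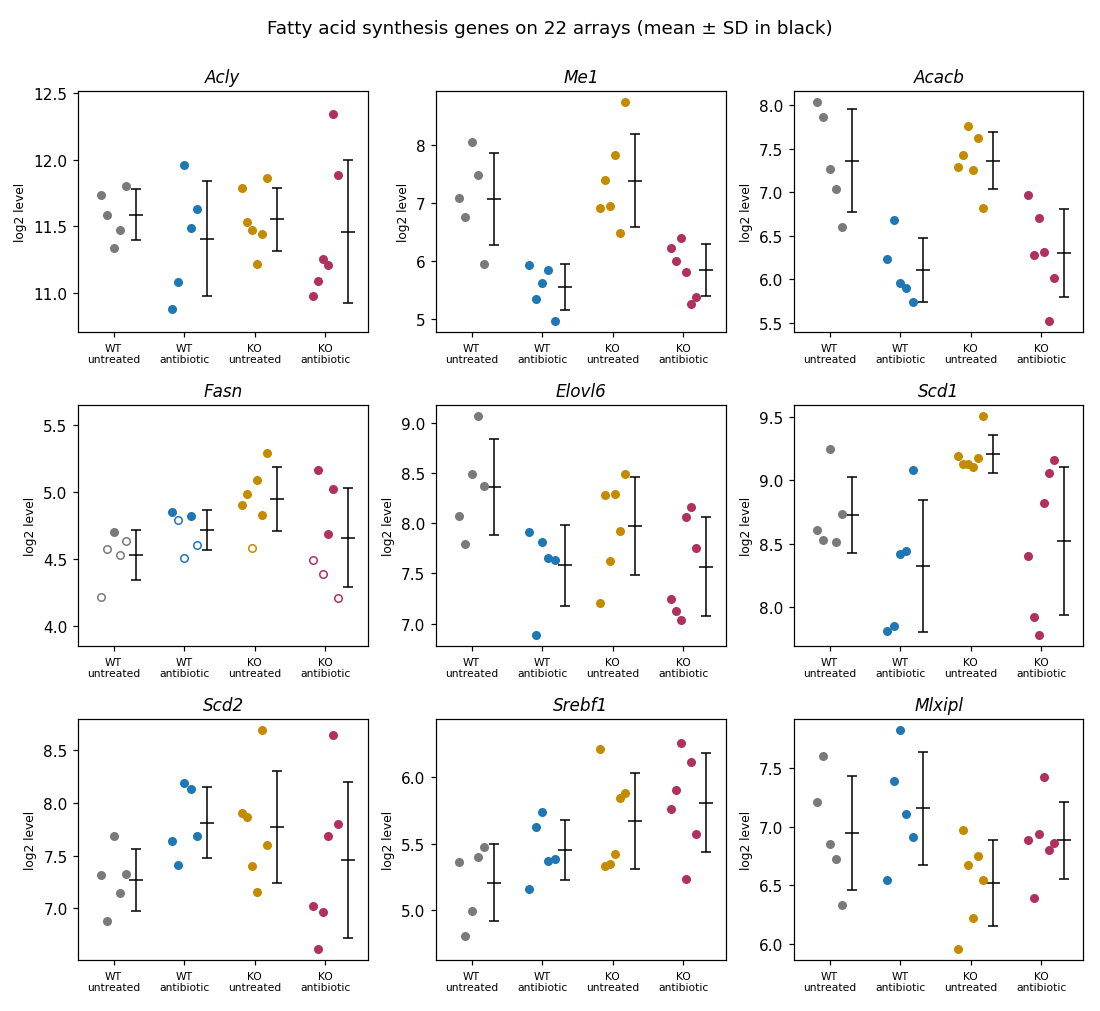
Each panel shows the log2 level of 1 gene (brightest tested probe) on the 22 arrays, by group, with the mean ± SD in black; open points are arrays where the probe was not detected, and panels have their own y axes. Me1 and Acacb sit lower in both antibiotic groups, with no overlap with the untreated arrays of the same genotype for Me1 and some for Acacb, and Fasn sits near background.

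Elovl6, Scd1 and Scd2 modify the product. Elovl6 is the elongase that takes palmitate to stearate. Its brighter probe, ILMN_2614752, read 8.07, 7.79, 8.49, 9.06 and 8.37 in WT_untreated and 7.91, 6.89, 7.81, 7.66 and 7.63 in WT_antibiotic. It ran from 7.20 over a median of 8.10 to 8.48 in KO_untreated and from 7.03 over 7.50 to 8.16 in KO_antibiotic. The groups overlapped in both genotypes, and 3 of 5 WT_antibiotic arrays lay below every WT_untreated array. The differences were -0.78 in WT (SE 0.27, adjusted p = 0.105) and -0.40 in KO (SE 0.25, adjusted p = 0.345), neither past the threshold alone. Their average fell by 0.59 on the log2 scale, a 1.51-fold lower signal (SE 0.19, adjusted p = 0.0281).

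The second Elovl6 probe, ILMN_1228218, was detected on 14 of 22 arrays and gave an averaged difference of -0.43 (SE 0.15, adjusted p = 0.0489). The brighter probe's average missed the threshold with median scaling over all probes and with no filter (limma, adjusted p = 0.114 and 0.0816). Both Elovl6 calls were close to the threshold. The brighter probe lost it in 5 of the 22 fits that left out 1 array (adjusted p up to 0.0654: without WT_untreated 3, WT_untreated 4, WT_antibiotic 2, KO_untreated 6 or KO_antibiotic 2), and the dimmer probe in 13 of them. With KO_untreated 1 as the only untreated KO array the brighter probe's average was -0.21 (adjusted p = 0.758), its KO difference was 0.36 (adjusted p = 0.716), and the average of neither probe passed. The upstream sequence of Elovl6 is printed as an example in which none of the 4 motifs was found. It is no contrast in response, since Elovl6 also fell with antibiotics on average. It lies at chr3:129532136-129532385, plus strand, RefSeq GRCm38.p6, and has no capitals because there is nothing to mark.
Elovl6: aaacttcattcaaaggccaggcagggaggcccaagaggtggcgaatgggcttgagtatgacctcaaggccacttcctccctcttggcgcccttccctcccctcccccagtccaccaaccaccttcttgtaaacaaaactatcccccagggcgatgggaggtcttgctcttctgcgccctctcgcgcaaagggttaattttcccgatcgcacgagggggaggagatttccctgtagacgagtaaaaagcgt
Because this sequence was chosen for holding none of the 4 motifs, it cannot show whether the printed genes share one.

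Scd1, the stearoyl-CoA desaturase that makes oleate, was 8.61, 8.53, 9.24, 8.51 and 8.73 in WT_untreated and 7.81, 7.85, 8.42, 8.44 and 9.08 in WT_antibiotic. In KO_untreated the 6 arrays were close together, from 9.10 over a median of 9.15 to 9.51. In KO_antibiotic they ran from 7.78 over 8.61 to 9.16. Of the treated arrays, 4 of 5 in WT and 5 of 6 in KO lay below every untreated array of their genotype. The averaged difference was -0.54 (SE 0.17, adjusted p = 0.0276), a 1.46-fold lower signal. Within genotypes it was -0.41 in WT (SE 0.25, adjusted p = 0.393) and -0.68 in KO (SE 0.23, adjusted p = 0.0526). The KO value passed in 6 of the 22 fits that left out 1 array, with adjusted p down to 0.0209 without KO_antibiotic 6, the others being without WT_untreated 3, WT_antibiotic 1, 2 or 5 or KO_antibiotic 5. The KO value also passed in 7 of the 13 other settings, with adjusted p from 0.0283 to 0.0499. The average lost the call without WT_untreated 3, WT_antibiotic 1, WT_antibiotic 2 or KO_antibiotic 2 (adjusted p up to 0.0642). It also missed the threshold with median scaling over all probes (adjusted p = 0.097), with no filter (adjusted p = 0.0765) and with array weights (adjusted p = 0.0635). It was -0.49 (adjusted p = 0.0552) without KO_antibiotic 3 and 4, and -0.54 (adjusted p = 0.32) with KO_untreated 1 as the only untreated KO array.

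Scd2, the isoform of the desaturase best known from brain, passed in no comparison. Its level was 7.32, 6.88, 7.69, 7.14 and 7.33 in WT_untreated and 7.63, 7.41, 8.19, 8.13 and 7.69 in WT_antibiotic. It ran from 7.16 over a median of 7.73 to 8.69 in KO_untreated and from 6.61 over 7.36 to 8.65 in KO_antibiotic. The WT groups were shifted up with antibiotics and the KO groups down, with overlap in both. The differences were 0.54 in WT (SE 0.30, adjusted p = 0.341) and -0.31 in KO (SE 0.28, adjusted p = 0.541). The difference between these responses, -0.85 (SE 0.41), had an unadjusted p of 0.0485 by limma and an adjusted p of 0.567. With KO_untreated 1 as its single array it was -0.99 (adjusted p = 0.433). Scd1 and Scd2 are close paralogs, and whether a probe also binds the other transcript was not tested.

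Srebf1 and Mlxipl encode the transcription factors SREBP1 and ChREBP, which switch on lipogenic genes in response to insulin and to sugar. One Srebf1 probe, ILMN_2696876, was undetected on every array. The other, ILMN_2792089, read 5.36, 4.81, 5.00, 5.40 and 5.47 in WT_untreated and 5.16, 5.62, 5.73, 5.37 and 5.38 in WT_antibiotic. It ran from 5.33 over a median of 5.63 to 6.20 in KO_untreated and from 5.23 over 5.83 to 6.25 in KO_antibiotic. Each group overlapped the others, with the KO arrays toward the upper end. The KO difference was 0.46 without antibiotics (SE 0.19, adjusted p = 0.109) and 0.35 with them (SE 0.19, adjusted p = 1). Averaged it was 0.41, a 1.33-fold higher signal (SE 0.13, adjusted p = 0.0709). That average passed without WT_antibiotic 2, KO_antibiotic 4 or KO_antibiotic 6, with adjusted p from 0.0382 to 0.0467, and with array weights (adjusted p = 0.0402). With KO_untreated 1 as its single array the average was 0.67 (adjusted p = 0.0545). The antibiotic differences of Srebf1 were 0.24 in WT and 0.13 in KO (adjusted p = 0.534 and 0.709). The transcript level of Srebf1 does not measure its activity, because the protein has to be cleaved from the membrane first.

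The brighter Mlxipl probe, ILMN_2992232, read 7.21, 7.61, 6.85, 6.72 and 6.33 in WT_untreated and 6.54, 7.39, 7.82, 7.11 and 6.91 in WT_antibiotic. It ran from 5.95 over a median of 6.61 to 6.97 in KO_untreated and from 6.39 over 6.87 to 7.42 in KO_antibiotic. All 4 groups overlapped. The antibiotic average was 0.29 (SE 0.17, adjusted p = 0.272), and the dimmer probe, ILMN_1259035, gave 0.40 (SE 0.15, adjusted p = 0.0664). The KO average was -0.35 (SE 0.17, adjusted p = 0.193) at the brighter probe and -0.07 (SE 0.15, adjusted p = 0.787) at the dimmer one. The probes thus gave the same sign with unequal size for the genotype, and neither passed.

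**Figure D2:**
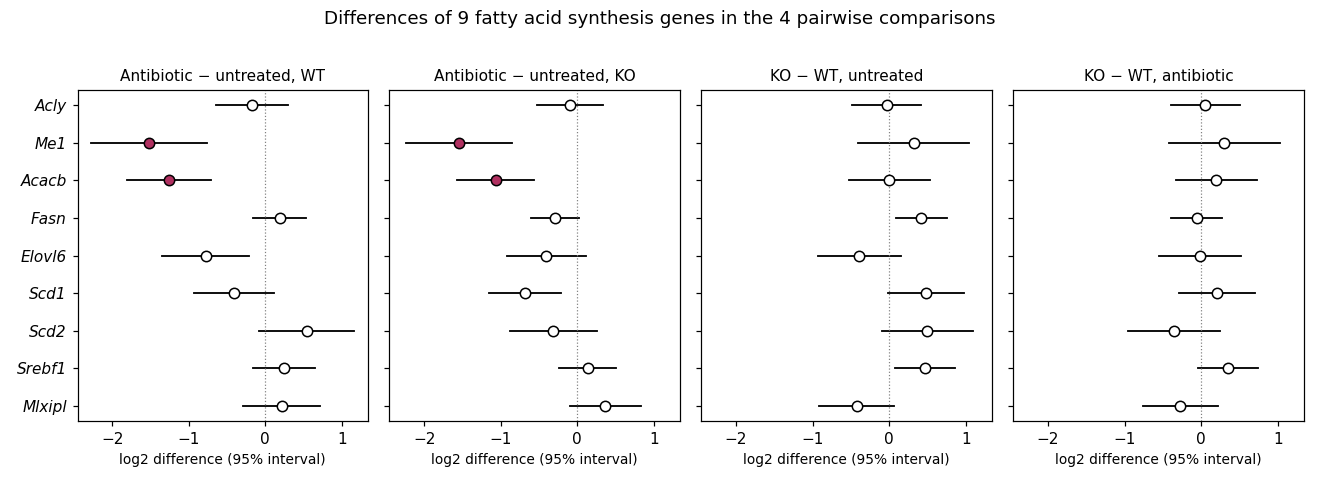
Log2 differences of 9 genes with 95% intervals in the 4 pairwise comparisons, from 1 limma fit on 22 arrays; filled points passed an adjusted p of 0.05. Only Me1 and Acacb are filled, in both antibiotic comparisons, and no gene is filled in the KO against WT panels.

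The KO against WT comparisons asked whether these genes differed between the genotypes under the same treatment. Without antibiotics the genotype cannot be told apart from the suffix on most KO_untreated descriptions. Without antibiotics 0 of 11 member probes passed (limma), where 10.9% of all tested probes did. At an unadjusted p under 0.05 it was 2 of 11, Fasn and Srebf1, both higher in KO, against 29.1% of all probes. With antibiotics 0 of 11 passed, against 0.03% of all probes, and 0 of 11 had an unadjusted p under 0.05, against 3.27%. Averaged over treatments 0 of 11 passed, against 4.82%, and 2 of 11 had an unadjusted p under 0.05 (Srebf1 higher, Mlxipl lower in KO), against 25%. For the difference between the antibiotic responses of the genotypes 0 of 11 passed, against 0.01%, and 2 of 11 had an unadjusted p under 0.05 (Fasn and Scd2, both negative), against 8.78%. These comparisons share their arrays with the antibiotic comparisons and are not independent of them. The median difference of the 9 genes was 0.32 between untreated KO and WT arrays, against 0.05 over all genes tested. The intervals there are wide: that of Scd1 ran from -0.02 to 0.98 and that of Me1 from -0.40 to 1.04.

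Other steps around fatty acid synthesis were read from lists of 118 genes, of which 91 were tested by their brightest probe. Between antibiotic and untreated arrays, averaged, 5 of 91 rose and 4 fell, 9.89% of those tested, where 20% of all genes passed. In WT alone 2 rose and 1 fell, where 5.57% of all genes passed, and in KO alone 1 rose and 3 fell, where 14.8% did. Between untreated KO and WT arrays 4 rose and 2 fell, where 12% of all genes passed. With antibiotics 0 of 91 passed (limma; 3 at an unadjusted p under 0.05), where 0.0187% of all genes did. For the difference between the antibiotic responses 0 of 91 passed (2 unadjusted), where 0% of all genes did. Averaged over treatments 1 rose and 2 fell in KO, where 5.31% of all genes passed.

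Among the desaturases and elongation enzymes outside the members, 15 of 20 were tested. With antibiotics, averaged, 3 fell and 1 rose, where 20% of all genes passed. Fads1 and Fads2 are desaturases of polyunsaturated fatty acid synthesis, and they moved in opposite directions. Fads1 was 9.55 ± 0.73 (SD, n = 5) and 8.75 ± 0.87 in untreated and treated WT, and 10.34 ± 0.31 (SD, n = 6) and 8.88 ± 0.75 in KO. The 6 treated KO arrays lay below all 6 untreated ones, and the WT groups overlapped. Fads1 fell by 1.46 in KO (SE 0.36, adjusted p = 0.00717) and by 1.13 on average (SE 0.26, adjusted p = 0.00349). Fads2 rose by 0.57 on average (SE 0.15, adjusted p = 0.00708). Fads3, a related desaturase, lay near background, detected on 5 of 5 WT_untreated, 0 of 5 WT_antibiotic, 5 of 6 KO_untreated and 2 of 6 KO_antibiotic arrays. Not being above background in WT_antibiotic, its signal was at least 1.23-fold higher in untreated than in treated WT (measured means 5.03 and 4.46, adjusted p = 0.0431). In KO the measured means were 5.34 and 4.54, a difference of -0.80 (SE 0.15, adjusted p = 0.000717), with most treated arrays at background. Fads3 passed the filter on dim signals only through its untreated arrays, so its antibiotic calls are not independent of that filter. Hacd4, a dehydratase of the elongation cycle, fell by 0.34 on average (adjusted p = 0.048). Its call was lost in 16 of 22 fits without 1 array. It was also lost with KO_untreated 1 as its single array, where the average was -0.31. Leaving out 1 array lost the WT call of Fads3 in 10 of 22 fits and none of the other calls of Fads1, Fads2 and Fads3. With KO_untreated 1 as the only untreated KO array, the averages of Fads1 and Fads2 were -1.34 and 0.27 and lost their calls. The KO difference of Fads1 then was -1.88, also without its call, and that of Fads3 was -1.16 and kept it.

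For acetyl-CoA and NADPH supply 12 of 14 genes were tested. Me2, the mitochondrial malic enzyme, fell by 0.32 with antibiotics on average (SE 0.09, adjusted p = 0.017), a 1.25-fold lower signal beside the 2.90-fold of Me1. With KO_untreated 1 as its single array the average of Me2 was -0.37 and its call was lost. Slc25a1, the mitochondrial citrate carrier, was 0.64 higher in untreated KO than in untreated WT (SE 0.18, adjusted p = 0.0294), with no overlap between the groups. For activation and binding of fatty acids 8 of 15 genes were tested. Acsl3, an acyl-CoA synthetase, was lower in untreated KO by a difference of -1.18 (SE 0.31, adjusted p = 0.0212), and Dbi, the acyl-CoA binding protein, by -0.67 (SE 0.21, adjusted p = 0.0415). In either gene the 6 KO arrays lay below all untreated WT arrays. Fits without 1 array lost the call of Slc25a1 in 6 of 22, of Acsl3 in 2 and of Dbi in 9. With KO_untreated 1 as its single array their calls were lost, while the differences were larger, at 0.80, -1.67 and -1.34.

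Averaged over the genotypes, 20% of all genes passed between antibiotic and untreated arrays. For glycerolipid assembly 18 of 23 genes were tested. With antibiotics 3 of them rose on average: Dgat1, which completes triglyceride, by 0.61 (SE 0.13, adjusted p = 0.0018), Lpin3, a phosphatidate phosphatase, by 0.60 (SE 0.15, adjusted p = 0.00561), and Agpat2, an acyltransferase, by 0.52 (SE 0.16, adjusted p = 0.0239). Dgat1 was 6.62 ± 0.25 (SD, n = 5) in WT_untreated and 7.43 ± 0.30 in WT_antibiotic, without overlap, and rose by 0.81 there (adjusted p = 0.0192). In KO it was 6.96 ± 0.17 (SD, n = 6) and 7.38 ± 0.46. Agpat3 was 0.81 higher in untreated KO than in untreated WT (SE 0.24, adjusted p = 0.0337). Fits without 1 array lost the WT call of Dgat1 in 3 of 22, the call of Agpat2 in 1 and that of Agpat3 in 7. The averages of Dgat1, Lpin3 and Agpat2 and the call of Agpat3 did not pass with KO_untreated 1 as the single untreated KO array. The averages then were 0.70, 0.40 and 0.24, and the difference of Agpat3 was 1.11. For mitochondrial fatty acid synthesis, a separate pathway, 7 of 10 genes were tested. In all 7 comparisons 0 of them passed (limma, also 0 at an unadjusted p under 0.05). Of all genes between 0% and 20% passed, depending on the comparison. At that unadjusted p 29.1% of all probes passed between untreated KO and WT arrays. So few genes do not set this pathway apart.

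Of the genes that control lipogenic transcription or enzyme activity 31 of 36 were tested. Srebf2 encodes the sterol-regulated relative of SREBP1, known for cholesterol synthesis. It was 8.29 ± 0.29 (SD, n = 5) in WT_untreated, 8.39 ± 0.29 in WT_antibiotic, 9.25 ± 0.29 (SD, n = 6) in KO_untreated and 8.51 ± 0.14 in KO_antibiotic. The untreated KO arrays, at 8.93 to 9.65, lay above every array of the other 3 groups. Srebf2 was 0.96 higher in untreated KO than in untreated WT (SE 0.16, adjusted p = 0.00163) and fell by 0.74 with antibiotics in KO (SE 0.15, adjusted p = 0.00164). Both values share the KO_untreated arrays. With KO_untreated 1 as its single array they were 0.64 and -0.43, and 1 array has little power to keep a call. Mlx, the partner of ChREBP, was 0.43 higher in untreated KO (SE 0.14, adjusted p = 0.0477). That call was lost in 16 of 22 fits without 1 array and with the single array, where the difference was 0.62. Nr1h3, the liver X receptor alpha, rose with antibiotics by 0.86 in WT (SE 0.21, adjusted p = 0.0194) and by 0.61 in KO (SE 0.19, adjusted p = 0.0369), with no overlap in either genotype. Insig2, which holds SREBP in the endoplasmic reticulum, was lower in KO by a difference of -0.39 on average (SE 0.10, adjusted p = 0.0298). Fits without 1 array lost the call of Nr1h3 in 3 of 22 for WT and 6 of 22 for KO, and that of Insig2 in 9 of 22. With KO_untreated 1 as its single array the KO difference of Nr1h3 was 0.41, its average 0.63 and the average of Insig2 -0.40. Each of these calls was lost there.

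**Figure D3:**
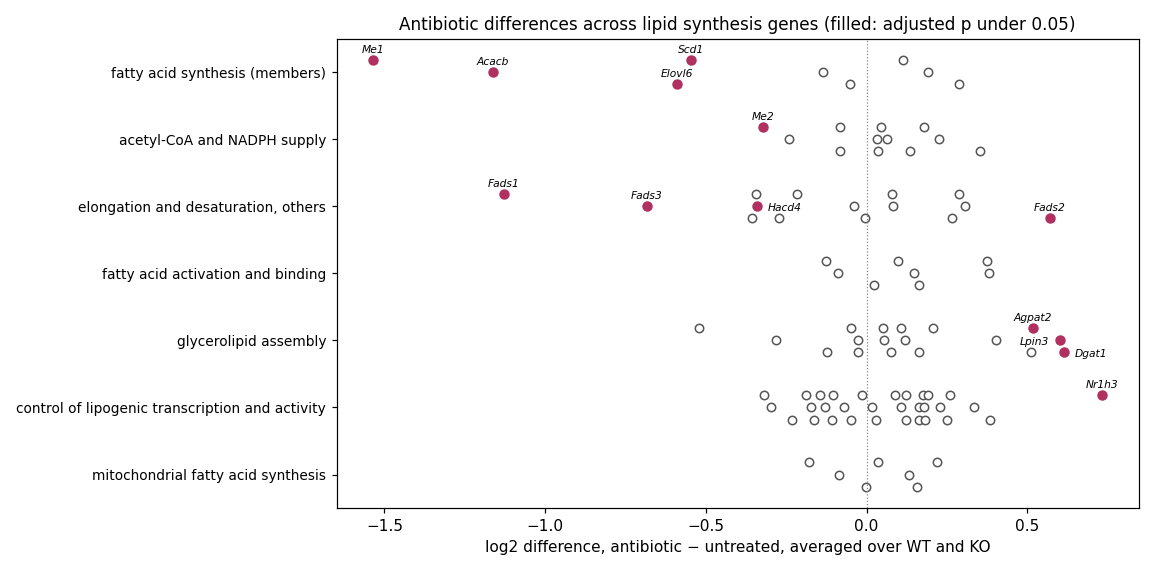
Each point is 1 tested gene; the x axis is its log2 difference between antibiotic and untreated arrays, averaged over WT and KO, and the rows are the gene lists. Filled, named points passed an adjusted p of 0.05: Me1, Acacb and Fads1 lie farthest to the left, while Dgat1, Lpin3, Agpat2, Fads2 and Nr1h3 lie to the right.

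Proliferation and goblet cell markers moved in the antibiotic comparisons in which Me1 and Acacb fell. Of all tested genes 5.57% passed in WT and 14.8% in KO, in either direction. Of 9 tested proliferation markers 5 fell in WT and 8 in KO. Their summed linear signal ran from 1356 to 2414 in WT_untreated, 449 to 1403 in WT_antibiotic, 1965 to 3800 in KO_untreated and 738 to 1108 in KO_antibiotic. Of 7 tested goblet cell markers 3 fell in both genotypes (Agr2, Spdef and Spink4), and Tff3 rose in KO. The goblet sum ran from 77622 to 91940, 72553 to 87164, 95431 to 112430 and 65458 to 93611 in the same order of groups. Of 9 epithelial markers 1, Krt18, fell in both. Of 10 tested surface colonocyte markers 1, Cyp2c55, fell in WT and 1, Car4, rose in KO. Their sum ran from 79368 to 95013, 71491 to 85644, 64047 to 80625 and 64198 to 88642 in that order of groups. The part of these markers in the Me1 and Acacb differences was not tested.

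For adipocytes, which are rich in these enzymes, 0 of 4 tested markers passed in either antibiotic comparison (limma; 1 at an unadjusted p under 0.05 in WT, 0 in KO). Their summed signal ran from 269 to 632 in WT_untreated, 180 to 333 in WT_antibiotic, 155 to 357 in KO_untreated and 183 to 337 in KO_antibiotic. Of 9 tested leukocyte markers 0 passed in either antibiotic comparison (1 unadjusted in WT, 0 in KO). Of 13 stromal, muscle and endothelial markers 6 were tested and 1, Vwf, fell in KO, while Col1a1, Col3a1 and Lum were undetected on every array. Their sum ran from 119 to 279 in WT_untreated, 103 to 308 in WT_antibiotic, 132 to 285 in KO_untreated and 81.4 to 393 in KO_antibiotic. Of 3 tested pancreas markers 1 rose in both, with a summed signal up to 13348 in WT_untreated beside a median of 1451 there. Between untreated KO and WT arrays 1 of 4 adipocyte markers was lower (limma), where 12% of all genes passed. There 2 of 7 goblet, 1 of 9 proliferation and 1 of 9 epithelial markers were higher. Of 10 surface colonocyte markers 1 was lower, and of 6 stromal, muscle and endothelial markers 1 was higher and 1 lower. Leukocyte and pancreas markers gave no call. Their part in the KO differences was not tested.

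Apart from the group differences, the members were also compared with each other across arrays. For 36 pairs of the 9 genes the deviations from the group means were correlated over 22 arrays, with permutation within groups. By Pearson's r 0 of 36 pairs passed an adjusted p of 0.05, by Spearman's rho 1 of 36 did, and 18 of 36 had a positive r. Scd1 and Scd2 had r = 0.60 (permutation adjusted p = 0.0816) and Spearman's rho = 0.74 (permutation adjusted p = 0.0493), and r = 0.68 without the 2 arrays farthest from the median of Scd1. Acacb and Elovl6 had r = -0.64 and rho = -0.60 (permutation adjusted p = 0.0816 and 0.0643), and r = -0.58 without the 2 farthest arrays. Acly correlated positively with Scd1 and Scd2, at r = 0.61 and 0.62 (permutation adjusted p = 0.159 and 0.0816), and had r = -0.59 with Acacb (permutation adjusted p = 0.0816). Without the 2 farthest arrays these were 0.59, 0.40 and -0.49. Me1 and Acacb, which both fell with antibiotics, had r = 0.09 within groups. All points share the normalisation of their array.

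**Figure D4:**
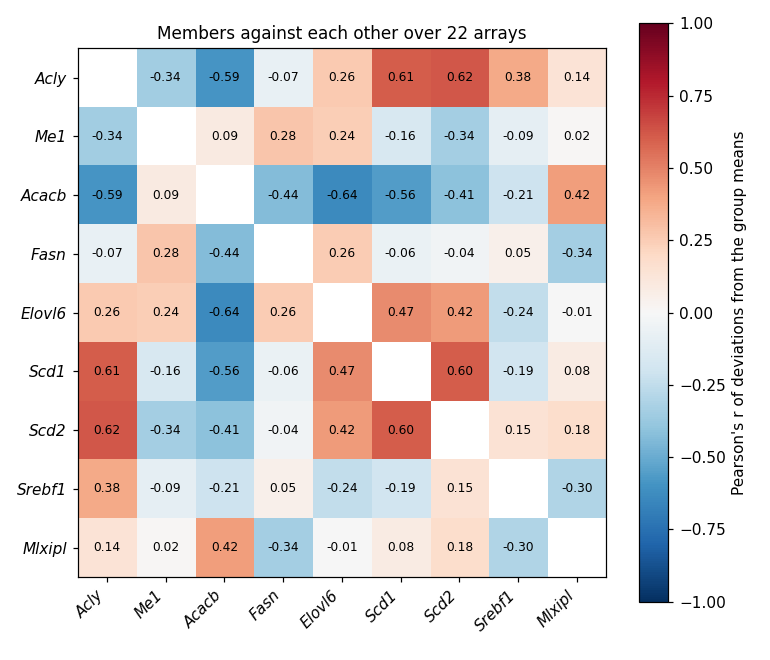
Pearson's r between members over 22 arrays after the group means were removed, with red for positive and blue for negative values. Acly, Scd1 and Scd2 are positive against each other at r = 0.60 to 0.62 and Acacb is negative against Acly, Elovl6 and Scd1, and by r no pair passed an adjusted p of 0.05.

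Upstream windows were searched for 4 motifs on both strands, from 250 bases before to 50 after the start. RefSeq held 12 such windows for 8 of the 10 members, and Scd1 and Scd2 had no entry. The sterol regulatory element TCACNCCAC was found in 1 of 12 windows, a Mlxipl start, and in 1.24% of all 32851 windows of the table. The E-box core CACGTG was found in 1 of 12, another Mlxipl start, and in 7.15% of all. CCAAT was found in 7 of 12 and in 37.4% of all, and GGGCGG in 5 of 12 and in 35.7% of all. The Me1 and Acacb sequences printed here have no motif in common, while the other Me1 window and that of Acacb both hold CCAAT. A match describes letters and not binding, and no match says only that these letters are not in the window.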

How the data were processed

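Per the file headers, the deposited scanner table holds for each of 45281 probes a mean bead signal, a linear intensity with no background subtracted, and a detection p-value per array. The authors' processed table, also a linear intensity, has identical sorted values in its 22 columns and was used only as an alternative. The scanner software and the authors' own steps are not stated in the labels or headers.

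Signals were background-corrected and quantile normalised with neqc (limma 3.58.1, R 4.3.3, offset 16). Probes with detection p under 0.05 on at least 5 arrays were tested (19993, or 10706 genes by their brightest probe). One limma fit (lmFit, eBayes, 18 residual degrees of freedom) held all 22 arrays with a mean per group. Its 7 two-sided contrasts were the 4 pairwise comparisons, their difference (interaction) and the averages over genotype and over treatment. Adjustment was by Benjamini-Hochberg across the whole tested table, and 0.05 was the threshold. These p-values reflect only the spread between these samples, which may be technical, and the number of arrays limits precision. Member pairs were tested with 100000 permutations within groups. Probes were named from the platform annotation, updated through GRCm38.p6 gene identifiers: 34885 probes had 1 symbol, 18 several and 10378 none, and 34807 matched by identifier. The fit was tested on simulated data.

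All members were described with every probe. From the wider lists a gene was named where its brightest tested probe passed the threshold, at most 4 per list and contrast. The members, gene lists, comparisons and alternatives were chosen with earlier results of these data known.

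The alternatives were no background correction, median scaling (over all or over detected probes), the authors' values, no filter, a block for the replicate number, a filter at detection p under 0.01 (16644 probes), limma array weights, a covariate for how many probes an array detected, only the groups compared, the mean of a gene's probes, the fit minus KO_antibiotic 3 and 4, KO_untreated as its 1 array with no suffix, and each array left out in turn.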

Additional observations from a re-analysis of the deposited data

Results flagged for a closer look

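Among 56 group values (14 probes in 4 groups), 3 held an array far from the rest of its group by Dixon's test, and chance flags about 1 in 20 groups. Elovl6 (ILMN_2614752) on WT_antibiotic 2 was the lowest of its group at 6.89, while the other 4 arrays lay between 7.63 and 7.91. Scd1 on KO_untreated 6 was the highest at 9.51, with the other 5 between 9.10 and 9.19. The dimmer Mlxipl probe (ILMN_1259035) on WT_antibiotic 3 was the highest at 6.58, with the other 4 between 5.77 and 5.98. Without WT_antibiotic 2 the averaged antibiotic difference of Elovl6 was -0.50 (limma, adjusted p = 0.0601).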

How the results depend on the processing

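Me1 and Acacb kept their averaged antibiotic difference, its direction and its call, in all 22 fits without 1 array and in the 11 other settings fitted to probes, with log2 differences between -1.68 and -1.12 for Me1 and between -1.26 and -0.88 for Acacb. Of the 11 member probes, the number called for the averaged antibiotic effect was 2 with median scaling over all probes, 2 with no filter, 2 with KO_untreated as its 1 array and 3 minus KO_antibiotic 3 and 4, against 5 in the fit reported. Leaving out 1 array gave 2 to 6. For antibiotics in WT it was 1 with median scaling over all probes and 1 with no filter, against 2, and 1 to 3 without 1 array. For antibiotics in KO it was 0 with KO_untreated as its 1 array, where that array is assumed to vary like the other groups, against 2, and 2 to 3 without 1 array. For untreated KO against WT it was 1 with array weights (Fasn) and 1 in the fit of only the groups compared (Scd1), against 0. For the genotype average it was 1 with array weights (Srebf1), against 0, and 0 to 1 without 1 array. Among the other pathway genes, median scaling over all probes lost the calls of Acsl3, Agpat3, Dbi, Mlx, Insig2, Fads2, Me2, Agpat2, Nr1h3 in both genotypes and Dgat1 and Fads3 in WT (adjusted p from 0.074 to 0.31). No filter lost those of Acsl3, Slc25a1, Agpat3, Dbi, Mlx, Agpat2, Hacd4, Fads3 in WT and Nr1h3 in KO (adjusted p from 0.0638 to 0.129). Median scaling over detected probes lost the calls of Dbi, Mlx, Insig2, Agpat2, Hacd4 and Fads3 in WT. The covariate for detected probes lost Dbi, Mlx and the KO average of Acsl3. The fit minus KO_antibiotic 3 and 4 lost Mlx, Insig2, Hacd4, Nr1h3 in KO and the KO average of Acsl3. No background correction and the authors' values each lost Hacd4 and the KO average of Acsl3. The authors' values also lost Fads3 in WT, and the replicate block lost Hacd4. No called value changed sign under any alternative. Whether the replicate numbers pair the arrays was not settled. Of 21 same-numbered pairs 9 had deviations correlated above 0.1, with a range from -0.35 to 0.53, and pairs with unlike numbers were not compared. With the replicate block 3 member probes were called for antibiotics in KO and 4 for the average. Array slides are not named in the files, so no slide block was fitted. Fasn, Fads3, the dimmer Elovl6 probe and the undetected Acaca probe lie at or near background, where signal limits what a difference can show.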
